A study of Mus musculus with 4 samples.

Results

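The 7 genes described here are D630003M21Rik, Fam5c, Itih5, Add2, Rundc3a, Ptprn and Amigo2, out of 23420 gene symbols with a row in the deposited table. They were chosen by their normalised read counts in this same comparison, because they had almost no reads in myeloid cells from wild-type tumours and clear reads in myeloid cells from tumours without epidermal CD200, so that difference is a description below and is supported by no test. RNA was sequenced from tumour-infiltrating cells of FVB/N mice that carried both CD11b, an integrin of myeloid cells, and CD200R1, which binds CD200. The cells came from cutaneous squamous cell carcinomas grown orthotopically. Wild-type tumours (WT) gave 2 libraries, and tumours of the genotype K14Cre;CD200fl/fl (EpiKO), where a Cre recombinase driven by the keratin 14 promoter acts in epithelial cells of the epidermis, gave the other 2. The labels state no age, sex or time point, nor whether a library came from 1 mouse or a pool, so the spread between libraries may be technical.

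Most of the 7 genes are known from neurons, endocrine cells or the membrane skeleton. Adducins cap the fast-growing end of actin filaments and join them to spectrin under the plasma membrane, and the beta subunit encoded by Add2 is best known from red blood cells and brain. Ptprn encodes IA-2, a catalytically inactive receptor-type tyrosine phosphatase in the membrane of dense-core secretory vesicles. Rundc3a encodes a RUN domain protein first described as a partner of the small GTPase Rap2. Fam5c, now named Brinp3, belongs to a family of secreted proteins found mainly in the nervous system. Itih5 encodes a heavy chain of the inter-alpha-trypsin inhibitor family, whose members bind hyaluronan in the extracellular matrix. Amigo2 encodes a transmembrane adhesion protein with leucine-rich repeats. D630003M21Rik is annotated as protein coding and carries no functional name in the sources used here.

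The libraries held 15884132 to 21244158 reads assigned to genes, and the myeloid markers were abundant in each of them, at a summed normalised read count of 431541 to 611242 over 14 genes. Cd200 itself stood at 92.7 and 59.7 in the WT libraries against 17.2 and 15.1 in the EpiKO ones, which does not check the labels, since the sorted cells are not those in which K14Cre acts. WT replicate 1 stood apart in keratinocyte genes, with Krt14 at 1907 against 28.6 in WT replicate 2 and 8.61 and 18.9 in EpiKO. Xist, expressed from the inactive X chromosome, was at 522 and 361 in the WT libraries against 1228 and 1510 in the EpiKO ones, while the Y-linked Ddx3y was at 2310 and 1938 against 1843 and 1742. The part of either difference in the results below was not tested. In bulk RNA, fewer cells that express a gene and less RNA per cell cannot be told apart.

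The regions upstream of the 6 genes with a matched promoter had no common base composition. RefSeq promoter sequences on GRCm38.p6 were matched for 6 of the 7 genes, Rundc3a being the exception, and these 6 genes had 9 annotated promoters. The 4 sequences below are shown because they run from few to many CpG dinucleotides. Each is the 250 bases before an annotated start, written 5′ to 3′ on the strand of the gene, with CpG dinucleotides in capitals. They lie at chr1:146495379-146495628 (plus strand, the first of 3 starts of Fam5c), chr6:86028431-86028680 (plus strand), chr2:158229225-158229474 (minus strand) and chr15:97247288-97247537 (minus strand).
Fam5c: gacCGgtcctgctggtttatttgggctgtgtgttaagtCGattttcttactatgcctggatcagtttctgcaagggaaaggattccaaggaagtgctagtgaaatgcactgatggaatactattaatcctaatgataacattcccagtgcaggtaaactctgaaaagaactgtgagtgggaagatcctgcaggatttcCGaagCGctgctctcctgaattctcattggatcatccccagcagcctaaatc
Add2: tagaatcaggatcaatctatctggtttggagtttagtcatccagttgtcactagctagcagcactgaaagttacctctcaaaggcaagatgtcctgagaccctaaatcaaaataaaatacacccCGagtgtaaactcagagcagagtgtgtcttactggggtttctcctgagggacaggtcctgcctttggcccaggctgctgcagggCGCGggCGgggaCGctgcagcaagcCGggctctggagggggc
D630003M21Rik: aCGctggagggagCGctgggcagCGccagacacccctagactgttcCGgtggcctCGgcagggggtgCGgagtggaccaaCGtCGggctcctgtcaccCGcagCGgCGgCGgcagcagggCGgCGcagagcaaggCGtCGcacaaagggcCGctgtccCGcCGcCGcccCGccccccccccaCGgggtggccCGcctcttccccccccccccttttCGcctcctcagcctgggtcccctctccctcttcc
Amigo2: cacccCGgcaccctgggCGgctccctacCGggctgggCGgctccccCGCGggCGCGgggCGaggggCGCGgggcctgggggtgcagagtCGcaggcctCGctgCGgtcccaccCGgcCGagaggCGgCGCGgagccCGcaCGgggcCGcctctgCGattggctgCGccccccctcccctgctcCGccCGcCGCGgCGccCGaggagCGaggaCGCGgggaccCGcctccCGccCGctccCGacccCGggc
The stretch upstream of Fam5c holds 4 CpG dinucleotides and that of Add2 holds 6, while those of D630003M21Rik and Amigo2 hold 24 and 38.

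Over the full 300 bases that RefSeq promoters cover, 250 before and 50 after the start, the promoter of Amigo2 had a G + C content of 83.3%, above that of 99.7% of the 32851 mouse promoters in the table. D630003M21Rik reached 74.0%, whereas the first 2 promoters of Fam5c had 45.3% and 44.0% and the last of its 3 had 52.3%. Itih5 had 60.7%, Add2 55.3%, and the 2 promoters of Ptprn 60.3% and 59.7%. The median was 52.7% over all promoters and 60.7% over the 12641 promoters of tested genes. Short motifs were then searched on both strands. The GC box GGGCGG was present in 5 of the 9 promoters, 1 each of Ptprn, Itih5, D630003M21Rik, Add2 and Amigo2, against 35.7% of all promoters and 62.2% of those of tested genes. The core letters of the repressor element RE1, which the neuronal gene silencer REST binds, were searched as a left part, TTCAGCACC, and a right part. Neither was found in the 9 promoters, and they occur in 0.371% and 0.137% of all promoters. The AP-1 motif TGANTCA was also absent from the 9 and occurs in 7.81% of all promoters. The cyclic AMP element TGACGTCA was absent too, with a share of 1.79%, as were the NF-kB consensus with 0.155%, the hypoxia element ACGTG with 19.6% and the TATA box TATAAA with 13.6%. The E-box CANNTG was found in 3 of the 9 against 72.3% of all promoters. The PU.1 core GAGGAA was found in 3 promoters of 2 genes against 28.3%, and the CCAAT box in 4 promoters of 2 genes against 37.4%. The first 2 promoters of Fam5c overlap, so the 9 promoters are not independent. TGACG, the first part of the cyclic AMP element, was found in 1 against 20.8%.

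**Figure D1:**
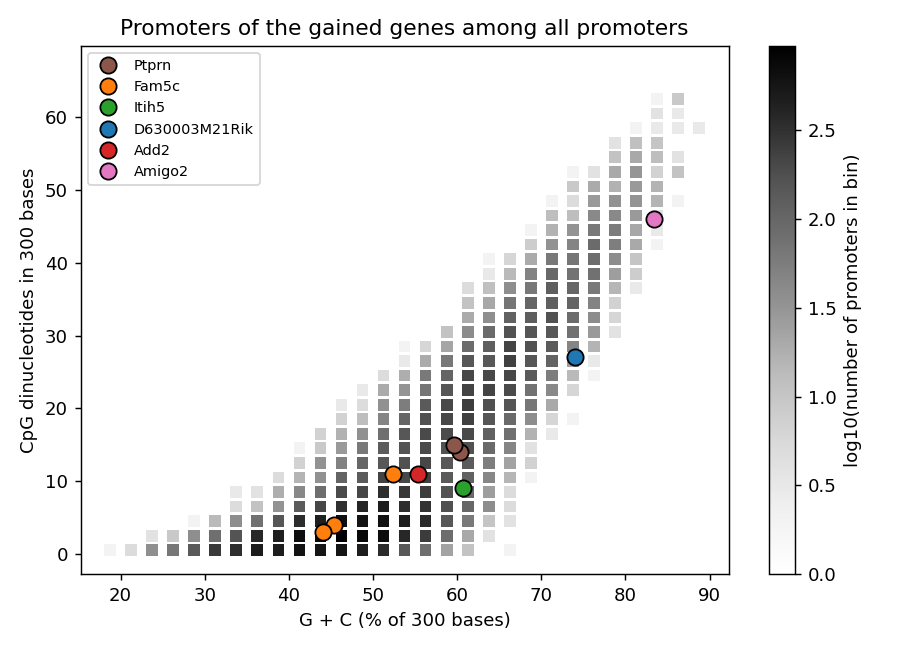
G + C content (x axis, % of 300 bases) and number of CpG dinucleotides (y axis) of 9 promoters of 6 gained genes (coloured points) over bins of all 32851 RefSeq promoters (grey squares, darker for more promoters on a log10 scale). The points reach from 44.0% for Fam5c to 83.3% for Amigo2, so the genes share no promoter class by this measure.

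Add2, the beta adducin of the membrane skeleton, was measured at a normalised read count of 16.2 and 11.8 in WT replicates 1 and 2, and at 287 and 234 in EpiKO replicates 1 and 2. These values rest on 14 and 14 reads in WT and 267 and 248 reads in EpiKO. The EpiKO over WT ratio of the pooled reads was 19.0 (exact 95% interval 12.99 to 28.9, counting error only). Add2 lies on chromosome 6 of GRCm38 from 86028681 to 86124409, on the plus strand. Of its exon bases, 3.51% overlap an antisense gene on the other strand, and the labels do not say whether strand was used in counting.

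The other adducins did not show such a gap. Add1, the alpha subunit found in most tissues, stood at 2703 and 3166 in the WT libraries against 3361 and 3154 in the EpiKO ones, with a log2 fold change of 0.15 and SE of 0.127 (adjusted p = 0.651, from limma with p-values adjusted by Benjamini-Hochberg). Add3, the gamma subunit, was at 607 and 926 in the WT libraries against 1493 and 813 in the EpiKO ones, with a log2 fold change of 0.55 and SE of 0.354 (limma adjusted p = 0.551). For both genes the groups overlapped. Per length of exon, in reads scaled to exon length and to the assigned reads of the library (RPKM), Add2 stood at 0.0869 and 0.0650 in the WT libraries against 1.51 and 1.27 in the EpiKO ones. Add1 had a mean of 20.6 RPKM and Add3 one of 9.74 RPKM in EpiKO. Add2 thus made up 0.388% and 0.225% of the summed adducin RPKM in WT, against 4.33% and 4.45% in EpiKO, so it stayed a minor adducin transcript.

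**Figure D2:**
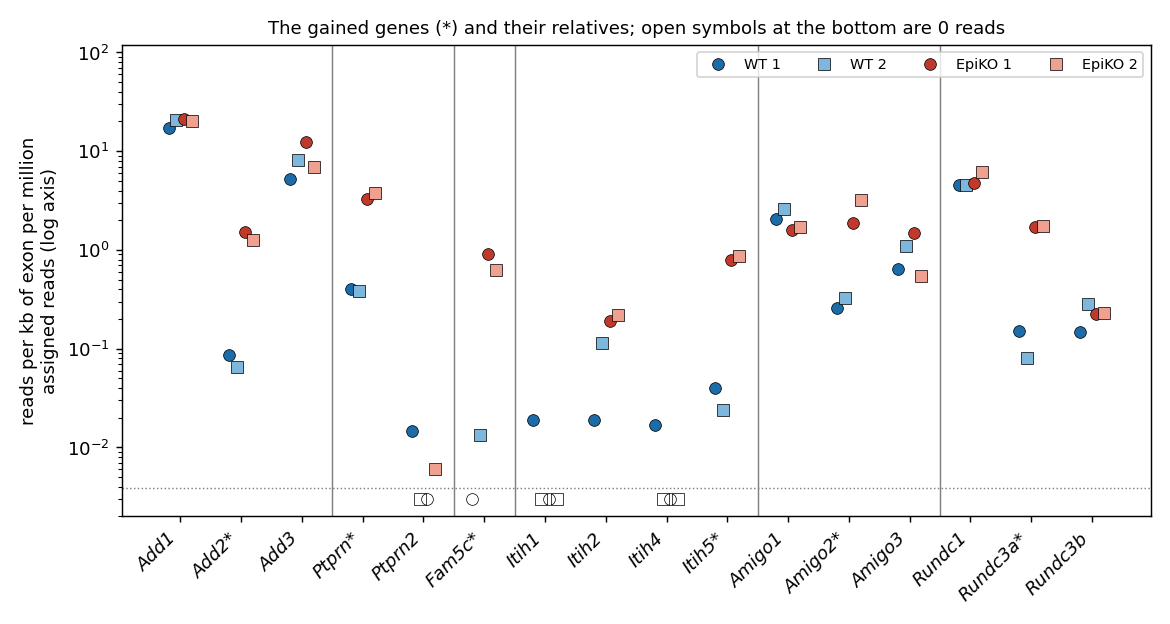
RPKM (log y axis) of the gained genes other than D630003M21Rik (asterisks) beside their relatives with at least 1 read, 1 point per library, with open symbols at the bottom for 0 reads. Add2 lies far below Add1 and Add3 in all 4 libraries, while Ptprn, Itih5, Fam5c and Amigo2 lead their families in EpiKO.

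Of 23 tested genes of the spectrin membrane skeleton other than Add2, none was called by limma (adjusted p under 0.05, a call made for 0.947% of all tested genes). By unadjusted p under 0.05, which 15.6% of all tested genes reached, there were 4. On the recovered reads edgeR called 0 and DESeq2 called 3, where they called 0.963% and 6.85% of all tested genes. Their median log2 fold change was 0.13, against -0.0021 over all tested genes. Sptan1 and Sptbn1, the spectrins outside red blood cells, had log2 fold changes of -0.017 and 0.54. The members with the smallest p pointed both ways. The tropomyosin gene Tpm1 and the filament-end capping gene Tmod1 came out at log2 fold changes of -0.69 ± 0.151 and -1.90 ± 0.457 (SE). The ankyrin gene Ank2 had one of -0.96 (SE 0.296), and Gypc, which encodes glycophorin C, one of 1.32 (SE 0.428). Their adjusted p lay between 0.123 and 0.241 (limma).

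Erythroid cells, in which Add2 is also abundant, were looked for through 13 marker rows. Of these, 6 had no read in any library, including Slc4a1, the band 3 gene, and several haemoglobin rows. The summed normalised read count of the list was 1254 and 2054 in WT and 897 and 774 in EpiKO. The largest part of that sum in each library was Tfrc, the transferrin receptor gene, at 981 and 1120 in WT against 659 and 365 in EpiKO. The haemoglobin row Beta-s stood at 225 and 861 in the WT libraries against 197 and 347 in the EpiKO ones. The list sum was thus not higher where Add2 was read. Why other haemoglobin rows had no read while Beta-s had some was not tested.

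Ptprn, the dense-core vesicle phosphatase, had the highest WT values of the 7 genes. Its normalised read count was 31.3 and 29.4 in WT and 259 and 292 in EpiKO, from 27 and 35 reads against 241 and 309. The ratio of pooled reads was 9.16 (exact 95% interval 7.04 to 12.1, counting error only), and each pair of replicates lay close together. Ptprn lies on chromosome 1 from 75247027 to 75264502, on the minus strand, and 4.45% of its exon bases overlap an antisense gene. Its relative Ptprn2, which encodes the second phosphatase of these vesicles, was near the floor throughout, at 2.32 and 0 in the WT libraries against 0 and 0.945 in the EpiKO ones. Ptprn gave 96.5% to 100% of the summed RPKM of the pair in each library.

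The other genes of regulated secretion pointed both ways. Of 32 listed rows, 15 passed the filter on low values and none of these was called by limma, while 5 had an unadjusted p under 0.05, against 15.6% of all tested genes. On the recovered reads edgeR called 0 and DESeq2 called 1. Of all tested genes limma called 0.947%, edgeR 0.963% and DESeq2 6.85%. The median log2 fold change was 0.076. The granule cargo genes Chga, Scg2 and Scg3, the prohormone convertase gene Pcsk1 and the fusion gene Snap25 had no read in any library, and Chgb had at most 1.68. Cpe, which encodes the peptide-processing carboxypeptidase E, stood at 611 and 371 in the WT libraries against 811 and 1091 in the EpiKO ones (log2 fold change 0.98 with SE 0.286, and limma adjusted p = 0.205). Cadps, a priming factor of dense-core vesicles, was at 12.7 and 12.6 in the WT libraries against 1.08 and 0 in the EpiKO ones. Pam and Syt11 came out at log2 fold changes of -0.32 ± 0.0991 and -0.45 ± 0.148 (SE). Resp18, an endocrine gene that is the next row beside Ptprn on the chromosome, had no read in any library.

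Rundc3a, the Rap2 partner, was measured at 8.11 and 4.2 in the WT libraries against 94.7 and 94.5 in the EpiKO ones, from 7 and 5 reads against 88 and 100. The ratio of pooled reads was 16.2 (exact 95% interval 9.05 to 31.9, counting error only), and the EpiKO libraries were nearly equal. The gene lies on chromosome 11 from 102393403 to 102402555, on the plus strand, without an exon base that another annotated gene covers. Its closest relative Rundc3b was at 10.4 and 19.3 in the WT libraries against 16.1 and 16.1 in the EpiKO ones, with overlapping groups (log2 fold change 0.17 with SE 0.501, and limma adjusted p = 0.917). Rundc1 had a log2 fold change of 0.30 and SE of 0.170 (limma adjusted p = 0.497).

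Rap2a, which encodes a Rap2 GTPase, stood at 2179 and 2098 in the WT libraries against 3444 and 3636 in the EpiKO ones. Its log2 fold change of 0.73 (SE 0.105) was short of a call by limma (adjusted p = 0.0567), and DESeq2 called it (adjusted p = 5.89e-05). Of 21 tested Rap GTPases and regulators none was called by limma, 6 had an unadjusted p under 0.05, edgeR called 0 and DESeq2 called 2. The shares of all tested genes were 0.947%, 15.6%, 0.963% and 6.85% in the same order. Rapgef3, the cyclic AMP-activated exchange factor for Rap1, was at 6.95 and 4.2 in the WT libraries against 38.8 and 46.3 in the EpiKO ones (log2 fold change 2.75 with SE 0.471, and limma adjusted p = 0.0769). Rapgef5 and Rapgef1 pointed the other way, with log2 fold changes of -0.51 (SE 0.156) and -0.30 (SE 0.102), and the median over the list was -0.11.

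Itih5, the hyaluronan-binding heavy chain, had a normalised read count of 5.80 and 3.36 in WT and of 116 and 125 in EpiKO. These are 5 and 4 reads against 108 and 132, a ratio of 27.5 (exact 95% interval 14.3 to 61.0, counting error only). Both EpiKO libraries were high and close to each other. The gene lies on chromosome 2 from 10153571 to 10256529, on the plus strand, with no exon base shared with another gene. Itih2, the next row on the same chromosome at a gap of 22.2 kb, was low throughout, at 1.16 and 6.72 in the WT libraries against 11.8 and 13.2 in the EpiKO ones. Its log2 fold change of 1.73 (SE 0.819) had an adjusted p of 0.401 (limma). Itih1 and Itih4 had 1 read each, both in WT replicate 1, and Itih3 had none. Itih5 gave 80.5% and 79.8% of the summed RPKM of the family in the EpiKO libraries.

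Among 16 tested genes of hyaluronan synthesis, breakdown and binding, 2 rose in EpiKO by limma and 14 did not pass, against 0.417% of all tested genes called higher. The median log2 fold change was 0.35. Of the 16, 7 had an unadjusted p under 0.05, edgeR called 2 and DESeq2 called 5. The shares of all tested genes were 15.6%, 0.963% and 6.85% in the same order. Lyve1, a hyaluronan receptor, rose by 3.18 ± 0.244 (SE) on the log2 scale (limma adjusted p = 0.0334), from 409 and 400 to 4684 and 2877. Tmem2, which encodes a cell-surface protein that degrades hyaluronan, rose by 0.88 ± 0.106 (SE, limma adjusted p = 0.0471), from 1034 and 984 to 1923 and 1788. Without WT replicate 1 or WT replicate 2 the adjusted p of Lyve1 was 0.138 and 0.174. For Tmem2 it was between 0.0981 and 0.215 when any 1 of the 4 libraries was left out. Has1, a hyaluronan synthase, was at 9.27 and 3.36 in the WT libraries against 40.9 and 42.5 in the EpiKO ones (log2 fold change 2.67 with SE 0.570, and limma adjusted p = 0.115). For Hapln3, a link protein, the log2 fold change was -2.55 ± 0.642 (SE), and for Cd44, the main cell-surface hyaluronan receptor, -0.62.

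Fam5c was close to silent in WT, with a normalised read count of 0 and 1.68, and stood at 121 and 80.3 in EpiKO. The reads were 0 and 2 against 112 and 85, a ratio of 102 (exact 95% interval 27.8 to 846, counting error only). EpiKO replicate 2 was lower than EpiKO replicate 1, at 0.666 of its value (exact 95% interval 0.497 to 0.891, counting error only). The gene spans chromosome 1 from 146494760 to 146902472 on the plus strand, and 2.30% of its exon bases overlap an antisense gene. Its relatives Fam5b and Dbc1, the latter now named Brinp1, had no read in any library.

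Amigo2, the adhesion gene, was measured at 15.1 and 18.5 in the WT libraries against 110 and 187 in the EpiKO ones, from 13 and 22 reads against 102 and 198. The ratio of pooled reads was 8.85 (exact 95% interval 6.23 to 12.95, counting error only), the smallest of the 7. The EpiKO libraries differed by more than counting error, with replicate 2 at 1.70 times replicate 1 (exact 95% interval 1.34 to 2.19). Amigo1 was at 210 and 258 in the WT libraries against 166 and 171 in the EpiKO ones, opposite in direction to Amigo2 but without a call (log2 fold change -0.46 with SE 0.181, and limma adjusted p = 0.316). Amigo3 had a log2 fold change of 0.13 ± 0.577 (SE), which turned negative without WT replicate 1 and without EpiKO replicate 1, at -0.22 and -0.58.

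Amigo2 lies on chromosome 15 from 97244125 to 97247287, on the minus strand, head to head with Pced1b on the plus strand. Their starts are 0.18 kb apart and 58 bases of their first exons overlap, or 1.83% of the exon bases of Amigo2. Pced1b stood at 41.7 and 53.0 in the WT libraries against 137 and 110 in the EpiKO ones (log2 fold change 1.36 with SE 0.272, and limma adjusted p = 0.103). Both EpiKO libraries were above both WT libraries, as they were for 23.3% of all tested genes. Of 13 tested leucine-rich repeat adhesion genes other than Amigo2, 1 rose by limma, against 0.417% of all tested genes, and 12 did not pass, with a median log2 fold change of -0.25. The gene that rose was Lrig1, a regulator of growth factor receptors, at 338 and 257 in WT, then 928 and 1102 with EpiKO (log2 fold change 1.77 with SE 0.181, and limma adjusted p = 0.0381). When any 1 library was left out its adjusted p lay between 0.0950 and 0.155. Flrt2 and Lrfn4 came out at log2 fold changes of 1.01 ± 0.314 and -0.60 ± 0.296 (SE).

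D630003M21Rik had the largest ratio of the 7 genes, 214 (exact 95% interval 38.0 to 8485, counting error only). Its normalised read count was 0 and 0.841 in WT and 72.1 and 132 in EpiKO, from 0 and 1 reads against 67 and 140. EpiKO replicate 2 was at 1.83 times EpiKO replicate 1 (exact 95% interval 1.36 to 2.49, counting error only), opposite in order to Fam5c. The gene lies on chromosome 2 from 158182533 to 158229222, on the minus strand, and shares no exon base with another gene.

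**Figure D3:**
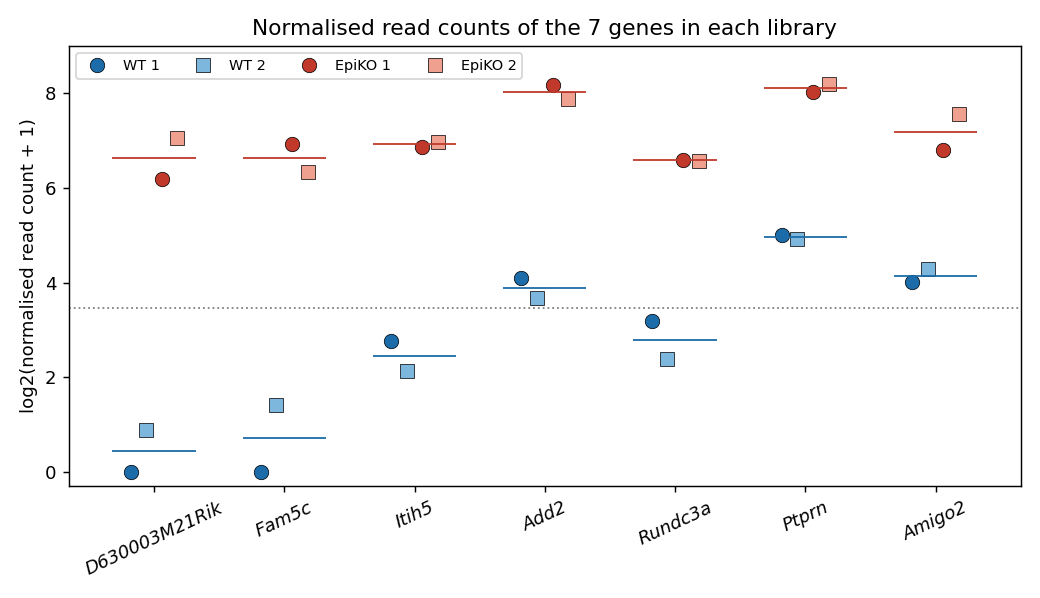
log2(normalised read count + 1) of the 7 genes (y axis) in each library (points), with a line at the mean of each group of 2 libraries and a dotted line at a value of 10. All EpiKO points lie above all WT points, which is how the genes were chosen.

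Together the 7 genes had 66 and 83 reads in WT, against 985 and 1212 in EpiKO. On the scale of log2(value + 1), on which all log2 fold changes here are given, they stood higher in EpiKO by 3.03 for Amigo2 up to 6.19 for D630003M21Rik. All 7 are among the 0.417% of 12463 tested genes that limma called higher, with 0.53% called lower. The genes were chosen by this same difference, so these calls are no test of them. Without WT replicate 1 or WT replicate 2 none of the 7 was called, and with any 1 library left out limma called 0 to 4 genes higher among all those tested. With all 4 libraries, Amigo2 lost its call with equal library totals and with quantile normalization, and Fam5c with a pseudocount of 0.5. D630003M21Rik, Fam5c, Rundc3a and Amigo2 lost theirs without the trend and robust options of limma. The groups did not overlap for any of the 7, as for 47.1% of tested genes, and 49.7% of tested genes had a positive log2 fold change. Of the 7, Add2, Ptprn and Amigo2 had WT values of at least 10, while D630003M21Rik, Fam5c, Itih5 and Rundc3a passed the filter on low values through the EpiKO libraries alone. The gained transcripts remained at low levels. In EpiKO the mean RPKM of the 7 genes ran from 0.774 for Fam5c to 3.51 for Ptprn, and the median over tested genes was 5.48 and 5.63 in the EpiKO libraries. In EpiKO replicate 1, Ptprn had more RPKM than 37.5% of tested genes and D630003M21Rik more than 15.3%.

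Rows with the same range of values were not limited to these genes. In 28 rows of the table both WT values were at most 31.3 and both EpiKO values at least 72.1, the outer values of the 7 genes. Of the 28, 21 were other genes, most of which limma did not call. Ptprn set the WT bound, where Trib2 and Inhba also lay, and D630003M21Rik set the EpiKO bound, where Pthlh and Cpt1c also lay. With at most 3 reads over both WT libraries and at least 100 over both EpiKO libraries there were 7 rows, of which D630003M21Rik and Fam5c are members of the set. The other 5 were Gulp1, Rgs17, Ear11, Ang4 and Nefl. The reverse pattern, nearly silent in EpiKO and read in WT, was found in 11 rows by reads summed over both libraries of a group. Among them were the keratin genes Krt1, Krt15, Krt16 and Krt6a and the desmosome genes Dsp and Dsc3. For Krt1, Krt16, Krt6a and Dsp, WT replicate 1 held 348, 109, 287 and 416 reads. WT replicate 2 held 6, 0, 0 and 3, so for these genes the pattern rests on WT replicate 1. The non-members most like the 7 genes, by Euclidean distance to their mean profile of log2(value + 1) over the 4 libraries, were Tinagl1, Glp1r, Gfra2, Spry4, Pcdhga6 and Foxc2, at distances of 1.16 to 1.75. The 7 genes themselves lay at 0.763 to 3.46. Tinagl1 stood at 9.27 and 3.36 in the WT libraries against 107 and 98.3 in the EpiKO ones, and Gfra2, a receptor for the neurotrophic factor neurturin, at 9.27 and 5.88 against 75.4 and 79.4.

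Neuronal markers as a list were not higher where the 7 genes were read. Over 19 pan-neuronal rows the summed normalised read count was 430 and 472 in WT and 368 and 383 in EpiKO. No read was found for Nefm, Dcx and Snap25 in any library, and Rbfox3 had a value of 1.16 in WT replicate 1 and 0 in the others. Of 8 tested markers, 1 fell by limma, against 0.53% of all tested genes, and 7 did not pass. An unadjusted p under 0.05 was reached by 4 of the 8, against 15.6% of all tested genes. The tools edgeR and DESeq2 called 2 each in either direction, against 0.963% and 6.85% of all tested genes. Of the DESeq2 calls 1 was Nefl, which was higher in EpiKO and is described below. Uchl1, a deubiquitinase abundant in neurons, fell by 3.20 ± 0.313 (SE) on the log2 scale (limma adjusted p = 0.0371), from 115 and 105 to 10.8 and 11.3. When any 1 library was left out its adjusted p was between 0.0797 and 0.181. Syn1 and Syp, genes of synaptic vesicle proteins, came out at log2 fold changes of 0.52 ± 0.396 and -0.82 ± 0.283 (SE).

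Nefl, the neurofilament light chain gene, was named after its values were seen. It stood at 0 and 2.52 in the WT libraries against 89.4 and 93.6 in the EpiKO ones, from 3 reads in all against 182. The ratio of pooled reads was 62.7 (exact 95% interval 21.1 to 307, counting error only). Its log2 fold change of 5.62 (SE 0.732) lay just above the threshold on the adjusted p (limma). Over its alternatives the adjusted p ran from 2.21e-07 with DESeq2 to 0.128 without WT replicate 2. Its partner neurofilament gene Nefm had no read, and Nefh was at 3.48 and 12.6 in the WT libraries against 2.15 and 10.4 in the EpiKO ones.

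The REST complex, which silences neuronal genes outside the nervous system, had 20 listed rows, all tested. None was called by limma, 2 had an unadjusted p under 0.05, and edgeR and DESeq2 called 0. The shares of all tested genes were 0.947%, 15.6%, 0.963% and 6.85% in the same order. The median log2 fold change was 0.026. The corepressor genes Rcor2 and Rcor1 came out at log2 fold changes of 0.68 ± 0.241 and 0.42 ± 0.156 (SE), and limma gave adjusted p of 0.273 and 0.289.

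Markers of 10 other cell types gave 65 tested genes, of which limma called 1, Uchl1, edgeR called 2 and DESeq2 called 10, and 19 had an unadjusted p under 0.05. Over all tested genes these shares were 0.947%, 0.963%, 6.85% and 15.6%, so the unadjusted and DESeq2 counts of the markers were above the background, and their part in the values of the 7 genes was not tested. Neuroendocrine markers summed to 75.3 and 94.98 in WT and to 56.0 and 60.5 in EpiKO, with 5 of 10 at 0 in all libraries, Chga among them. Most of that sum was Syp, at 74.2 and 89.9 against 40.9 and 51.0. Isl1, a transcription factor gene of endocrine cells and neurons, pointed the other way, at 0 and 2.52 in WT against 12.9 and 7.56 in EpiKO. It had 3 reads against 20, a ratio of 6.89 (exact 95% interval 2.04 to 36.2, counting error only), and did not pass the filter on low values. Schwann cell and melanocyte markers summed to 2534 and 2470 in WT and to 2392 and 1719 in EpiKO, mostly from Mitf and Mbp, and Sox10 was at 2.32 in WT replicate 1 and at 0 in the others. Fibroblast markers summed to 46072 and 31502 in WT and to 24145 and 41218 in EpiKO. For endothelial markers the sums were 1880 and 1303 in WT and 4163 and 1736 in EpiKO, for mast cells and basophils 607 and 222 against 336 and 182, for lymphocytes 1999 and 724 against 214 and 1089, and for neutrophils 1543 and 3047 against 4532 and 2452. In these last 5 lists the groups overlapped.

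Keratins of simple epithelia had higher values beside the 7 genes, without a call. Krt8 stood at 446 and 234 in the WT libraries against 1999 and 4164 in the EpiKO ones, and its partner Krt18 at 121 and 30.3 against 698 and 1074. The adjusted p was 0.0616 for Krt8 and 0.0856 for Krt18 (limma). Of 16 keratinocyte markers, 8 of them tested, 3 had both EpiKO values above both WT values and 6 had both below. These counts include markers that were not tested, and among all tested genes the shares were 23.3% and 23.8%. Each of the 6 had a higher value in WT replicate 1 than in WT replicate 2. Epcam, for example, was at 156 and 7.57 in WT against 6.46 and 7.56 in EpiKO. Besides Krt8 and Krt18, the marker above in both was Cdh1, the E-cadherin gene, at 547 and 361 in WT against 4437 and 685 in EpiKO. Its log2 fold change was 1.97 with SE 0.884 (limma adjusted p = 0.384). The summed level of the list was 7211 and 757 in WT and 7214 and 5995 in EpiKO. The largest entry of that sum was Krt14 in WT replicate 1, at 1907, and Cdh1 in WT replicate 2. In EpiKO replicate 1 it was Cdh1 and in EpiKO replicate 2 it was Krt8. The part of these epithelial transcripts in the values of the 7 genes was not tested.

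**Figure D4:**
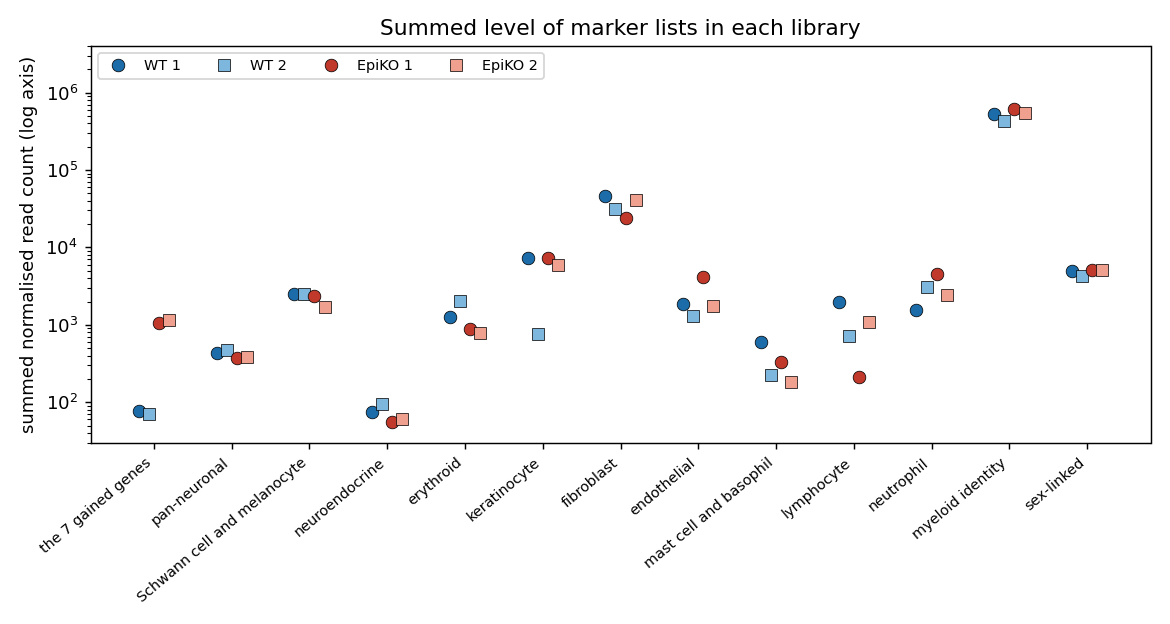
Summed normalised read count (log y axis) of the 7 gained genes and of 12 marker lists (x axis, cell types and sex-linked genes), 1 point per library. The 7 genes sum to 76.5 and 69.8 in WT and to 1060 and 1145 in EpiKO, while pan-neuronal markers sum to 430 and 472 in WT and to 368 and 383 in EpiKO.

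No tested gene around the 7 was called by limma. Leaving aside Pced1b, which overlaps Amigo2 and had an unadjusted p of 0.00365 (limma), the nearest annotated row on each side without overlap gave 14 genes, of which 8 were tested, and none of these was called by limma, edgeR or DESeq2 or had an unadjusted p under 0.05. For Dnajb2, 1.34 kb from Ptprn, the log2 fold change was -0.45 ± 0.221 (SE), and for Slc25a39, 0.43 kb from Rundc3a, -0.11 (SE 0.110). Tgm2, the transglutaminase gene next to D630003M21Rik, had a log2 fold change of -0.76 ± 0.295 (SE). Rgs18 and Pla2g4a, which flank Fam5c at 1719 kb and 2927 kb, had log2 fold changes of 0.20 and 0.25, and that of Rgs18 was -0.20 without WT replicate 1. The next rows beside Add2, Figla and Tgfa, were at or below 1.08 except for Tgfa at 11.6 in WT replicate 1, and Slc4a1 beside Rundc3a had no read.

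With any part within 500 kb of the starts there were 69 tested genes, none of them called by limma, against 0.947% of all tested genes. Of the 69, 10 had an unadjusted p under 0.05, edgeR called 0 and DESeq2 called 4. The shares of all tested genes were 15.6%, 0.963% and 6.85% in the same order. Their median log2 fold change was 0.014. The highest was that of Gjc1, a connexin gene 426 kb from the start of Rundc3a, at 3.48 and 0 in WT, then 35.5 and 45.4 with EpiKO (log2 fold change 4.28 with SE 0.865, and limma adjusted p = 0.105). Gjc1 was named after its values were seen. Rapgef3, described above among the Rap regulators, is 1 of 3 tested genes around Amigo2, with Pced1b and Rpap3, and Rpap3 had a log2 fold change of -0.0084 that became 0.020 without EpiKO replicate 2.

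**Figure D5:**
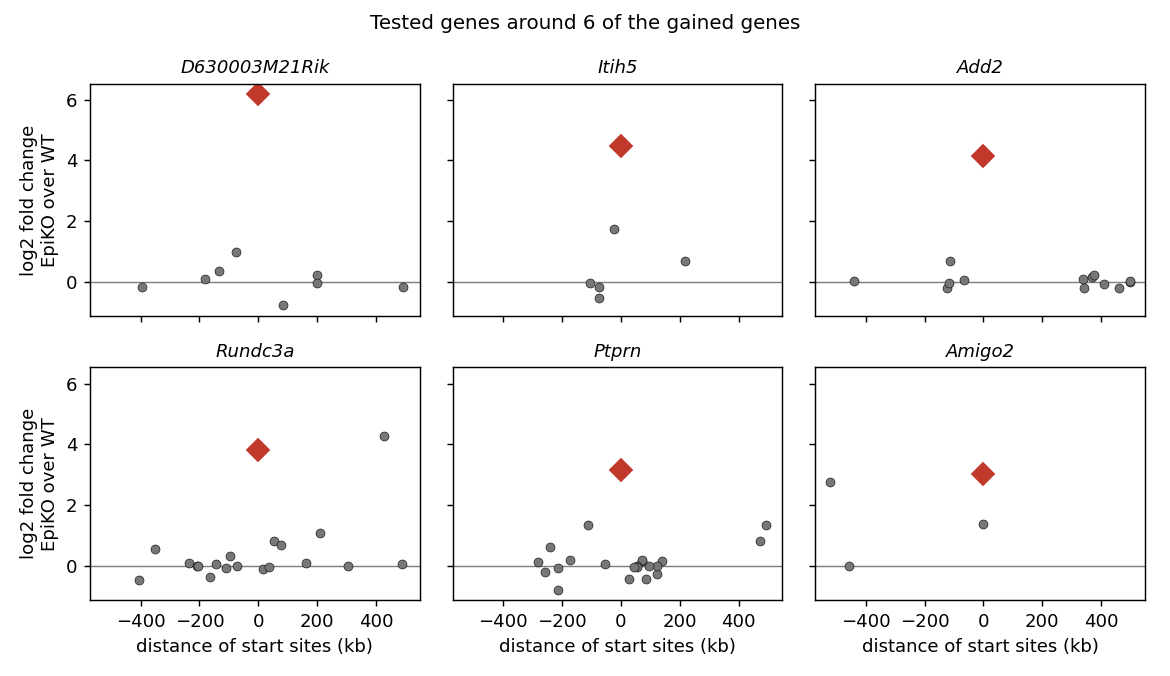
log2 fold change of EpiKO over WT (y axis) of tested genes near 6 of the gained genes (grey points) against the distance between starts in kb, positive downstream (x axis), with the gained gene as a red diamond. The gained genes stand above the tested genes around them, except for Gjc1 near Rundc3a, and Fam5c has no tested gene within 500 kb.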

How the data were processed

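RNA of 2 WT and 2 EpiKO libraries was compared. The tools named are featureCounts 1.5.0-p3, STAR 2.5.2b, DESeq2 and bcl2fastq 2.17, and the build is mm10, per the submitters' processing notes. Neither annotation nor strand setting is given in the sources used here. From the values, each deposited signal is a read count of 1 gene that was scaled by the authors with a factor for its library. Within a tolerance of 1e-06 reads, 100% of values came out whole when divided by the size of 1 read (0.841 to 1.16). A gene with 0 reads may stand at up to 3 reads, a value of 2.52 to 3.48. Intervals and this floor cover counting error only, because reads are not independent molecules.

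A gene needed values of 10 or more in 2 libraries or more (12463 genes), and was tested on log2(value + 1), which understates changes of low genes, with limma 3.58.1 in R 4.3.3 (trend, robust). P-values are two-sided and Benjamini-Hochberg adjusted over all tested genes, and a call is an adjusted p under 0.05. An exact permutation test of 2 against 2 libraries cannot go below 0.333. The count test edgeR 4.0.16 called 120 genes on the recovered reads against 118 by limma, and DESeq2 1.42.0 called 854. The fits were tested on simulated data, drawn with the same variability setting for all genes and without a library that stands apart. That simulation therefore does not cover a library such as WT replicate 1. RPKM used exon lengths of GENCODE M21 on GRCm38, the assembly of mm10, where 22982 symbols were located.

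The 7 genes and the lists were chosen with earlier results of these data known. Of 332 list entries 327 were found, 3 under another symbol. The named genes are the 7 genes, their relatives, up to 4 members of each pathway list by smallest p, up to 3 of each marker list by highest mean, the nearest non-overlapping row on each side, overlapping genes, and the 6 most alike profiles. Genes named otherwise were chosen after their values were seen: Cd200, Sptan1, Sptbn1, Chga, Chgb, Scg2, Scg3, Pcsk1, Snap25, Cd44, Nefl, Nefm, Nefh, Dcx, Rbfox3, Sox10, Krt18, Gjc1, Trib2, Inhba, Pthlh, Cpt1c and the rows nearly silent in 1 group. Alternatives were other pseudocounts, filters, scalings, tools and leaving out each library.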

Additional observations from a re-analysis of the deposited data

How the results depend on the processing

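Of 12463 genes tested by limma, 52 were called higher and 66 lower in EpiKO. Without the trend and robust options of limma the counts were 14 and 24, and DESeq2 gave 465 and 389. Leaving out 1 library gave 0 to 4 higher and 0 to 5 lower calls. No paired analysis was possible because the labels give the libraries no shared replicate numbers. The 7 genes kept a positive log2 fold change under every alternative that could be fitted, which their choice fixes in advance. The size of the 2 nearly silent in WT depended on the pseudocount and the tool, from 4.25 to 7.71 for D630003M21Rik and from 4.16 to 6.71 for Fam5c. That of Amigo2 ran from 2.65 without EpiKO replicate 2 to 3.41 without EpiKO replicate 1. Among the genes refitted under each alternative, 4 changed sign when 1 library was left out. Amigo3 ran from -0.58 without EpiKO replicate 1 to 0.84, and was -0.22 without WT replicate 1. Rundc3b ran from -0.25 to 0.58 and Rgs18 from -0.20 to 0.61, both negative without WT replicate 1. Rpap3 ran from -0.037 to 0.020, positive without EpiKO replicate 2. The cause of the differences between tools was not tested. At 15884132 to 21244158 reads per library, a level below about 3 reads cannot be told from none.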
